A study of Caenorhabditis elegans with 6 samples.

Results

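The genes described here are *blmp-1* and 4 genes that act with it in timing the turn of the migrating gonad: *dre-1*, *daf-12*, *lin-29* and *unc-5*. They were chosen by name, and each name matched 1 row, so all 5 of the 5 were found among the 47157 gene IDs of each library. RNA from whole young adult *Caenorhabditis elegans* was sequenced in 3 libraries of the mutant *blmp-1(s71)* and 3 libraries of the wild-type strain N2. In both groups embryos were released by bleaching, larvae were synchronized at the L1 stage and grown on NGM plates, RNA was extracted with TRIzol, and TruSeq libraries were made. Neither strain is labelled as carrying a transgene or any other allele, and no treatment is given. What s71 changes in the gene is not stated in the labels. The series' design text calls the 3 libraries of each strain biological replicates, but nothing says whether they came from separate cultures. The p-values therefore rest on the spread between these libraries, which limma draws towards a trend over all genes tested.

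In the larval hermaphrodite, a distal tip cell at each end of the gonad leads the growing arm away from the midbody, turns dorsally and then migrates back. BLMP-1, a zinc finger protein of the BLIMP1 family, is known to hold the turn back, and the F-box protein DRE-1 marks BLMP-1 for destruction as part of an SCF ubiquitin ligase. The nuclear hormone receptor DAF-12 and the zinc finger protein LIN-29 promote the turn, and the netrin receptor UNC-5 carries it out by steering the cell away from ventral netrin. The turn is made in larval life, before the stage sampled here, and all 5 genes also act in other tissues, among them the epidermis (*blmp-1*, *lin-29*, *dre-1*, *daf-12*) and neurons (*unc-5*).

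In these adults *lin-29* and *dre-1* rose in the mutant, by 0.95 (SE 0.28) and 0.75 (SE 0.25) on the log2 scale. Both calls were lost when any 1 library other than mutant 3 was left out. *blmp-1*, *daf-12* and *unc-5* did not pass the test. All 5 fold changes were positive, although that of *blmp-1* turned negative without mutant library 1. The test was limma with Benjamini-Hochberg adjustment over the 13756 genes that reached 1 CPM in at least 3 libraries, at an adjusted p under 0.05, and all 5 genes were among those tested. Of the 13756 genes, 22.3% were called, 8.84% as higher and 13.4% as lower in the mutant, against 2 of these 5 genes as higher and 0 as lower. The median log2 fold change was 0.41 for the 5 genes and 0.07 for all genes tested. It was 0.74 for the 5 genes when libraries were scaled by size alone, where the median of all genes moved to 0.35, and 0.73 without wild-type library 1. Levels below are reads on genes scaled to 1000000 per library (CPM) and then between libraries with TMM factors, a method that assumes most genes are level. Fold changes are on log2(CPM + 1), where adding 1 pulls the change of a weakly expressed gene towards 0.

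The libraries held 6586154, 13711720 and 9893919 reads on genes for mutants 1 to 3, and 5255125, 13319362 and 15218178 for wild types 1 to 3. Both replicate-1 libraries were therefore the shallowest of their group. Young adult identity was checked against 6 genes of the adult cuticle and yolk, which were present in every library. Summed, these genes lay between 28525 and 47304 scaled CPM in the mutant and between 37490 and 128036 in wild type. Averaged on the log2 scale, they stood at -1.13, -1.12 and -1.27 relative to the wild-type mean in mutants 1 to 3. The wild-type libraries stood between -0.28 and 0.29, so the groups separated on this average. The presence of these genes therefore does not show that both groups were at the same stage. All 6 had negative fold changes and 1, the collagen gene *col-19*, fell in the mutant, while edgeR called 1 and DESeq2 4 of the 6 lower. Of all genes, limma called 13.4%, edgeR 12% and DESeq2 16.4% lower. The limma call of *col-19* was lost on the deposited TPM, under library size alone, and without any 1 library other than mutant 3. Of the distal tip cell genes, the Delta ligand gene *lag-2* had at most 12 reads in any library and the bHLH gene *hlh-12* at most 10. In RNA of whole animals, fewer cells that make a transcript and less of it in each cell cannot be told apart.

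*blmp-1* (WBGene00003847) lies on the plus strand of chromosome I, 10409302 to 10414773, with 2 annotated transcripts and no annotated gene overlapping it. This and the positions that follow are from the WBcel235 annotation, and the build the authors used is not given in the sources used here. Its scaled level was 22.1, 12.95 and 8.62 CPM in mutants 1 to 3, and 14.3, 9.89 and 12.3 CPM in wild types 1 to 3. The transcript was thus present in every mutant library, and the mutant held both the highest and the lowest value of the 6. The mean was 14.5 ± 6.87 CPM in the mutant and 12.1 ± 2.20 CPM in wild type (SD, n = 3 each). The log2 fold change was 0.16, with a 95% interval from -0.52 to 0.85 (limma adjusted p = 0.697). Because the gene is measured as 1 sum over its exons, and the lesion is not described in the labels, its level does not check the genotype. Without mutant library 1 the fold change was -0.23, so the sign rested on that library. The spread among the mutant libraries was 5.81 times what counting 92 to 215 reads would give, against 1.80 times in wild type.

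*dre-1* (WBGene00001089) lies on the minus strand of chromosome V, 6533614 to 6546500, with 3 annotated transcripts. It encodes the F-box subunit that recognises BLMP-1. Its level was 60.2, 46.5 and 34.5 CPM in the mutant libraries and 22.7, 29.4 and 29.1 CPM in the wild-type libraries. Every mutant library lay above every wild-type library, with mutant 3 nearest to wild type. The mean was 47.0 ± 12.9 CPM in the mutant and 27.1 ± 3.77 CPM in wild type (SD, n = 3 each), and the fold of 1.68 had a 95% interval from 1.16 to 2.44 (limma adjusted p = 0.0477). edgeR's quasi-likelihood test and DESeq2, run on the reads recovered from the CPM, gave adjusted p-values of 0.0461 and 0.0309, and both also called 2 of the 5 genes, *dre-1* and *lin-29*. Over all genes edgeR called 20.5%, 8.48% as higher and 12% as lower, and DESeq2 called 28.6%, 12.2% as higher and 16.4% as lower. The call was lost without wild-type library 1, 2 or 3 (limma adjusted p = 0.0687, 0.0830 and 0.0981) and without mutant library 1 or 2 (limma adjusted p = 0.178 and 0.165), and it held without mutant library 3 (limma adjusted p = 0.0134).

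*lin-29* (WBGene00003015) lies on the minus strand of chromosome II, 11917642 to 11935343, with 3 annotated transcripts. It encodes the last regulator of the heterochronic pathway, which moves epidermal cells from larval to adult fate. Its level was 23.8, 15.96 and 14.2 CPM in the mutant libraries and 6.55, 8.60 and 11.2 CPM in the wild-type libraries. The groups did not overlap, with mutant library 3 and wild-type library 3 nearest to each other. The mean was 17.99 ± 5.07 CPM in the mutant and 8.79 ± 2.35 CPM in wild type (SD, n = 3 each), a fold of 1.93 with a 95% interval from 1.27 to 2.94 (limma adjusted p = 0.0371). The edgeR and DESeq2 adjusted p-values were 0.0424 and 0.0195. As for *dre-1*, the call was lost without any 1 wild-type library (limma adjusted p = 0.0581, 0.0777 and 0.0743 for libraries 1 to 3) and without mutant library 1 or 2 (limma adjusted p = 0.118 and 0.159), and it held without mutant library 3 (limma adjusted p = 0.0224). The protein isoforms that are known to be made from this locus are not separated in a value per gene.

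On the other strand *lin-29* overlaps *hmg-12*, a gene for a high-mobility group protein, and their exons share 2 bases. Whether the authors counted by strand is not given in the sources used here. *hmg-12* had 117, 93.1 and 178 CPM in the mutant libraries and 274, 208 and 266 CPM in the wild-type libraries. It fell by 0.98 (SE 0.26, limma adjusted p = 0.0344), opposite in direction to *lin-29*. This call was lost without any 1 wild-type library or mutant library 1 or 2, and with library size alone (limma adjusted p = 0.0749), upper-quartile scaling (limma adjusted p = 0.0509) or the deposited TPM (limma adjusted p = 0.0654). Among the other genes annotated within *dre-1*, *daf-12*, *lin-29* and *unc-5*, all of them non-coding, none had more than 2 reads in any library.

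*daf-12* (WBGene00000908) lies on the plus strand of the X chromosome, 10635908 to 10666875, with 10 annotated transcripts. It encodes the receptor for the steroid dafachronic acid. Its level was 53.98, 34.6 and 30.8 CPM in the mutant libraries and 46.3, 19.5 and 26.1 CPM in the wild-type libraries. In both groups library 1 was the highest, and wild-type library 1 stood above mutant libraries 2 and 3, so the groups overlapped. The mean was 39.8 ± 12.4 CPM in the mutant and 30.6 ± 14.0 CPM in wild type (SD, n = 3 each), with a log2 fold change of 0.41 and a 95% interval from -0.30 to 1.13 (limma adjusted p = 0.324). Leaving out a library moved the value to 0.84 without wild-type library 1 (limma adjusted p = 0.0613), to 0.15 without wild-type library 2 (limma adjusted p = 0.743) and to 0.12 without mutant library 1 (limma adjusted p = 0.836). Within the wild type the spread was 7.11 times the counting error, the largest such ratio among the 5 genes in either group.

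*unc-5* (WBGene00006745) lies on the minus strand of chromosome IV, 5495664 to 5528338, with 7 annotated transcripts. Its level was 17.0, 18.4 and 14.7 CPM in the mutant libraries and 12.6, 13.2 and 12.4 CPM in the wild-type libraries. All 3 mutant libraries lay above all 3 wild-type libraries. The mean was 16.7 ± 1.88 CPM in the mutant and 12.8 ± 0.421 CPM in wild type (SD, n = 3 each). The log2 fold change of 0.36 did not pass the test, with a 95% interval from -0.13 to 0.85 (limma adjusted p = 0.224). Its SE of 0.23 rested partly on the spread of all genes tested, not on the values of *unc-5* alone. The wild-type libraries differed by 0.343 times the spread that counting their 54 to 174 reads would give, so they lay closer together than counting error alone would put them on average. With adjusted p-values of 0.223 in edgeR and 0.253 in DESeq2, a difference in *unc-5* was not detectable by these tests, and the interval allows changes from 0.913-fold to 1.80-fold.

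**Figure D1:**
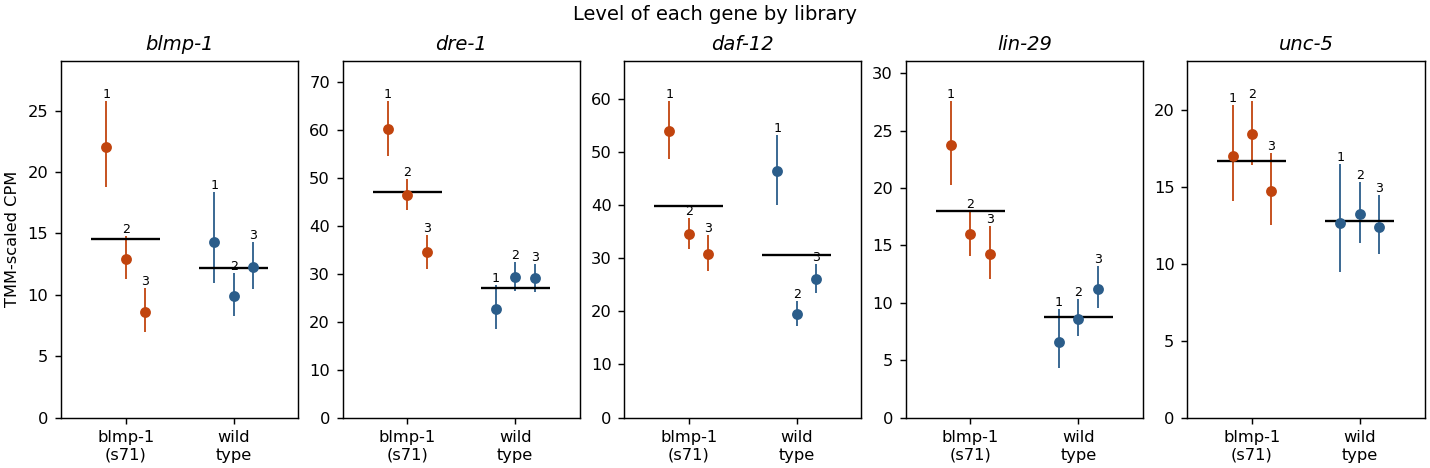
TMM-scaled CPM of *blmp-1*, *dre-1*, *daf-12*, *lin-29* and *unc-5* in the 3 *blmp-1(s71)* and 3 wild-type libraries. Points are libraries with their replicate number, vertical lines are 95% intervals that cover counting error only, and black lines are group means; the groups do not overlap for *dre-1*, *lin-29* and *unc-5* and overlap for *blmp-1* and *daf-12*.

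For 3 of the 5 genes, *dre-1*, *lin-29* and *unc-5*, the mutant libraries lay above all wild-type libraries. Among all genes tested the mutant libraries lay above all wild-type libraries in 22.6%, and above or below them in 48.6%. The 4 regulators were highest in mutant library 1 and lowest in mutant library 3, while *unc-5* was highest in mutant library 2. Relative to the wild-type mean on the log2 scale, mutant libraries 1, 2 and 3 stood at 1.37, 0.82 and 0.67 for *lin-29* and at 1.13, 0.77 and 0.35 for *dre-1*. They stood at 0.39, 0.50 and 0.19 for *unc-5*.

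Levels of different genes were compared per gene length, in the deposited TPM. *dre-1* was the highest in both groups, with 19.4 ± 5.62 TPM in the mutant and 9.22 ± 0.895 TPM in wild type. *daf-12* came next, with 13.8 ± 4.45 TPM in the mutant and 8.92 ± 4.59 TPM in wild type. In wild type these 2 genes were not separated, their ranges overlapping. In the mutant *dre-1* was above *daf-12* in 3 of 3 libraries, although the ranges overlapped there too. *lin-29* had 10.01 ± 2.93 TPM in the mutant, below *daf-12*, and 4.02 ± 0.822 TPM in wild type, where it had the lowest mean of the 5. *unc-5* had 6.68 ± 0.936 TPM in the mutant and 4.24 ± 0.326 TPM in wild type, and *blmp-1* had 6.15 ± 2.97 TPM in the mutant and 4.27 ± 0.951 TPM in wild type (SD, n = 3 each). In wild type *blmp-1*, *unc-5* and *lin-29* overlapped with each other and lay below *daf-12*. In the mutant *lin-29* was above *unc-5* with no overlap, and *unc-5* and *blmp-1* overlapped. Of all tested genes, 17.5% to 34.2% had a lower TPM than *blmp-1* in the mutant libraries and 22.8% to 33.4% in the wild-type libraries.

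A ratio of 2 genes within 1 library does not depend on how the libraries are scaled to each other. The TPM ratio of *lin-29* to *blmp-1* was 1.42, 1.63 and 2.18 in the mutant libraries and 0.606, 1.15 and 1.21 in the wild-type libraries. *lin-29* thus exceeded *blmp-1* per length in all 3 mutant libraries and in 2 of 3 wild-type libraries, and the groups did not overlap. The difference was 0.86 on the log2 scale, with p = 0.1 in a two-sided exact permutation test, the smallest that 3 against 3 libraries can give, and an adjusted p of 0.4 over the 4 ratios tested. For *dre-1* the ratio was 2.67, 3.51 and 3.92 in the mutant libraries and 1.56, 2.91 and 2.32 in the wild-type libraries, which overlapped (difference 0.60, exact permutation p = 0.2, adjusted p = 0.4). The ratios of *daf-12* and *unc-5* to *blmp-1* also overlapped, with differences of 0.26 and 0.21 (exact permutation p = 0.4 and 0.7, adjusted p = 0.533 and 0.7). The *blmp-1* transcript of the mutant is the denominator throughout, and it varied more among mutant than among wild-type libraries. Without mutant library 3 the *unc-5* difference was -0.02.

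**Figure D2:**
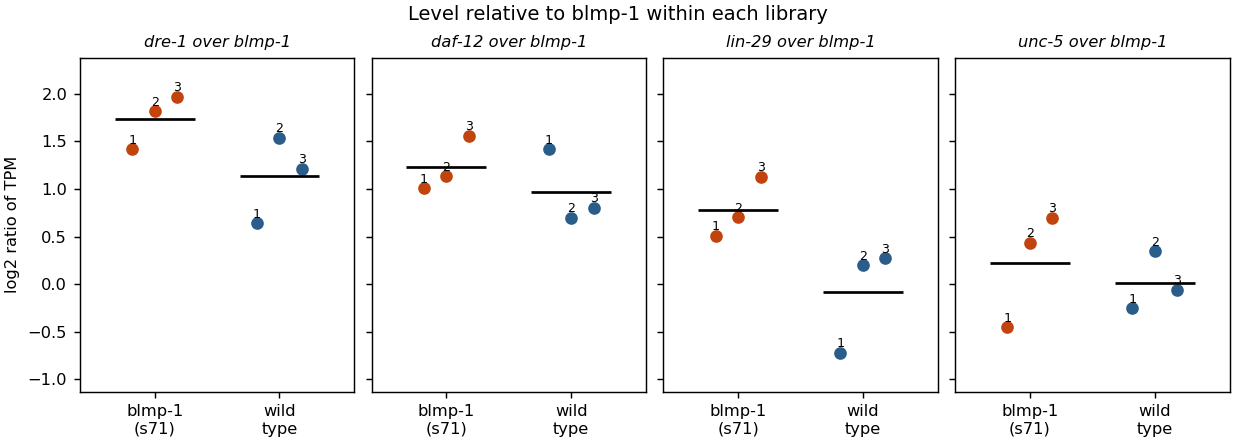
Log2 ratio of the TPM of *dre-1*, *daf-12*, *lin-29* and *unc-5* to that of *blmp-1* in the same library, for the 3 *blmp-1(s71)* and 3 wild-type libraries. Points carry the replicate number and black lines are group means; the groups separate for *lin-29*, from 0.51 to 1.12 in the mutant and from -0.72 to 0.27 in wild type, and overlap for the other 3 genes.

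Among the genes that act with *unc-5* in netrin guidance, 2 of 10 tested rose and 0 fell, against 8.84% and 13.4% of all genes. The list's median was 0.48, against 0.07 for all genes, and it was 0.17 without mutant library 1, 0.27 without wild-type library 2 and 0.77 without wild-type library 1. *unc-6*, the netrin ligand of UNC-5, had 12.4, 11.5 and 9.65 CPM in the mutant libraries and 5.38, 6.09 and 6.92 CPM in the wild-type libraries, a rise of 0.77 (SE 0.24, limma adjusted p = 0.0438). *mig-10*, whose product lamellipodin links guidance receptors to actin, had 49.2, 36.98 and 28.8 CPM in the mutant libraries and 23.4, 20.4 and 20.7 CPM in the wild-type libraries, a rise of 0.78 (SE 0.24, limma adjusted p = 0.0419). For both genes the groups did not overlap, and both calls were lost without any 1 wild-type library or mutant library 1 or 2. *unc-40*, the DCC-type receptor that works with UNC-5, stood at -0.80 on the log2 scale (SE 0.30, limma adjusted p = 0.0651), so the ligand and this receptor had opposite signs. The number called higher was 4 with library size alone, where 16.6% of all genes were called higher, 3 with upper-quartile scaling (14.8%) and 4 without mutant library 3 (13.9%).

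Of 12 genes of the distal tip cell and gonad 9 were tested, and *hlh-2* fell while 8 did not pass, against 13.4% of all genes called lower. *lag-2*, *hlh-12* and *ceh-22*, which mark or specify the distal tip cell, were left out for low values. *hlh-2*, the E protein partner of many bHLH factors, had 7.31, 5.06 and 11.5 CPM in the mutant libraries and 23.6, 17.0 and 18.6 CPM in the wild-type libraries. It fell by 1.26 (SE 0.29, limma adjusted p = 0.0337), a call lost without any 1 wild-type library, without mutant library 1 or 2 and with the deposited TPM (limma adjusted p = 0.0510). *gon-1* and *mig-17*, secreted metalloproteases needed for distal tip cell migration, did not pass, at 0.68 (SE 0.41) and 0.38 (SE 0.26).

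The SCF ligase list holds genes of the shared core and its regulators and, in *lin-23* and *sel-10*, 2 other F-box genes, whose products take the place of DRE-1 in complexes of their own. Of its 9 tested genes 2 fell and 0 rose, against 13.4% and 8.84% of all genes, all 9 fold changes were negative, and the median was -0.61. In 7 of the 9 the mutant libraries lay below all wild-type libraries, against 26% of all tested genes. *skr-2*, a Skp1-related adaptor, fell by 0.87 (SE 0.23, limma adjusted p = 0.0344), with 74.8, 73.8 and 108 CPM in the mutant libraries and 135, 168 and 163 CPM in the wild-type libraries. *rbx-1*, the RING subunit, fell by 0.69 (SE 0.22, limma adjusted p = 0.0422), while the cullin gene *cul-1* stood at -0.52 (SE 0.23, limma adjusted p = 0.0966) and the adaptor gene *skr-1* at -0.09. These directions are relative to the TMM scale. With library size alone 0 of the 9 were called by limma, against 1.02% of all genes called lower. There 7 were negative, with a median of -0.28, while the *dre-1* fold change was 1.07. With the deposited TPM 0 were called by limma, against 1.49% of all genes called lower, and 8 were negative. With upper-quartile scaling 3 were called, against 9.54% of all genes called lower, and 8 were negative. On the TMM scale 7 of the 9 had an unadjusted p under 0.05 in limma. The exact share of all genes under that threshold was not computed. Of the 13756 genes, *dre-1* ranked 2863 (limma unadjusted p = 0.00993) and *unc-5* 8407 (limma unadjusted p = 0.137). The threshold lies between them, so a large share of all genes passed it too. edgeR and DESeq2 each called 3 lower, against 12% and 16.4% of all genes. Without mutant library 3, where 21.8% of all genes were called lower, 7 were called. On the TMM scale the calls of *skr-2* and *rbx-1* were lost without any 1 wild-type library or mutant library 1 or 2.

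Of 9 genes of the DAF-12 hormone and its cofactors 7 were tested, and 2 rose, against 8.84% of all genes. *ncr-2*, a sterol transporter of the NPC1 family, had 13.4, 15.7 and 11.4 CPM in the mutant libraries and 2.81, 5.48 and 6.47 CPM in the wild-type libraries, a rise of 1.34 (SE 0.30, limma adjusted p = 0.0337) that was called in 3 of 6 fits with 1 library left out, and not without wild-type library 2 or mutant library 1 or 2. *daf-9*, the cytochrome P450 that makes dafachronic acid, had 5.76, 5.30 and 4.12 CPM in the mutant libraries and 1.40, 2.13 and 2.90 CPM in the wild-type libraries. It rose by 0.96 (SE 0.28, limma adjusted p = 0.0360), a call lost without any 1 wild-type library or mutant library 1 or 2, and rested on 41, 88 and 44 reads in the mutant libraries and 6, 28 and 39 in the wild-type libraries. *din-1*, the gene of a DAF-12 corepressor, stood at 0.07 (SE 0.54), and the list's median was 0.14. That median moved with each library left out, between 0.02 without wild-type library 3 and 0.60 without wild-type library 1.

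The heterochronic list, which holds genes that act before *lin-29* and its cofactor gene *mab-10*, gave 0 calls among 9 tested. In limma 3 had an unadjusted p under 0.05, a threshold that a large share of all genes passed too, as given for the SCF list. edgeR gave 0 calls, DESeq2 2 and limma with library size alone 2, against 20.5%, 28.6% and 17.6% of all genes. *lin-41*, a repressor of *lin-29* translation that is also abundant in oocytes, had 191, 94.0 and 291 CPM in the mutant libraries and 697, 326 and 434 CPM in the wild-type libraries. Its log2 fold change was -1.41 (SE 0.44, limma adjusted p = 0.0533), and it was called by DESeq2 (adjusted p = 0.0170). *mab-10* stood at 0.68 on the log2 scale (SE 0.28, limma adjusted p = 0.0840). The microRNA genes *lin-4*, *let-7*, *mir-48*, *mir-84* and *mir-241* were at 0 in every library. How far these TruSeq libraries recover RNA that short was not tested, so the zeros do not show that the microRNAs were absent.

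Among 8 regulators of the epidermis and the molt cycle 2 rose, against 8.84% of all genes. The median was 0.59, and 0.31 without mutant library 1. *nhr-85*, a nuclear receptor of the Rev-erb type, had 6.75, 4.76 and 3.56 CPM in the mutant libraries and 1.87, 1.52 and 1.86 CPM in the wild-type libraries (log2 fold change 1.10, SE 0.27, limma adjusted p = 0.0337). *grh-1*, the Grainyhead factor of the epidermis, had 24.9, 15.1 and 9.27 CPM in the mutant libraries and 7.49, 5.40 and 7.22 CPM in the wild-type libraries (log2 fold change 1.09, SE 0.32, limma adjusted p = 0.0385). For both, mutant library 1 was the highest and mutant library 3 the lowest of the mutant libraries, as it was for *lin-29* and *dre-1*, and both calls were lost without any 1 wild-type library or mutant library 1 or 2. *bed-3*, described as a target of BLMP-1 in the epidermis, stood at -0.20 (SE 0.38, limma adjusted p = 0.690). With library size alone, upper-quartile scaling or the deposited TPM 3 of the 8 were called higher, against 16.6%, 14.8% and 13.9% of all genes.

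**Figure D3:**
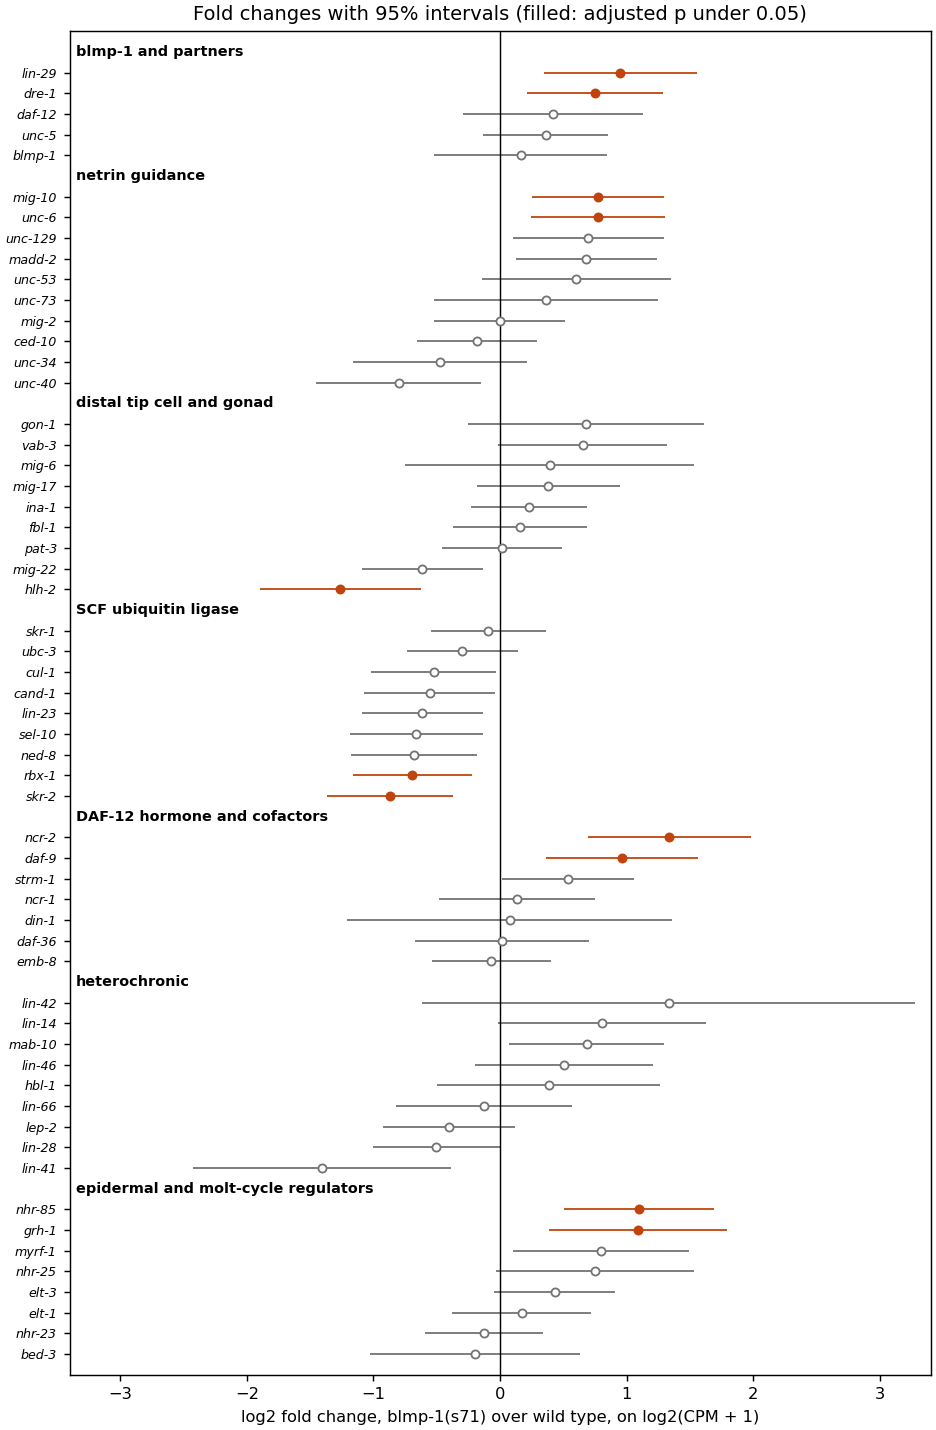
Log2 fold change of *blmp-1(s71)* over wild type for the 5 genes and the tested genes of 6 related lists, on log2(CPM + 1), with 95% intervals from limma. Filled points have an adjusted p under 0.05; *lin-29* and *dre-1* are filled in the top list, and all 9 points of the SCF list lie left of 0 on the TMM scale shown.

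Markers of other tissues and stages moved with the mutant libraries, and their part in the results above was not tested. Of all genes, limma called 8.84% higher and 13.4% lower, edgeR 8.48% and 12%, and DESeq2 12.2% and 16.4%. With library size alone the shares were 16.6% and 1.02%, with upper-quartile scaling 14.8% and 9.54%, and with the deposited TPM 13.9% and 1.49%. Without mutant library 3 limma called 13.9% higher and 21.8% lower, and without any 1 other library 0.257% to 2.01% in all. Of 12 molting epidermis markers 11 had positive fold changes, with 1 called higher by limma, 1 by edgeR and 8 by DESeq2, and 5 or 6 by limma under the other scalings. Summed, the molting markers lay between 322 and 1368 scaled CPM in the mutant libraries and between 178 and 277 in the wild-type libraries. On average these markers stood 2.38, 1.48 and 0.55 above the wild-type mean in mutant libraries 1, 2 and 3, with library 1 highest and library 3 lowest as for *lin-29*, *dre-1*, *daf-12* and *blmp-1*. Of 12 oocyte markers 7 fell, and their sum was between 1308 and 4481 CPM in the mutant libraries and between 5214 and 8416 CPM in the wild-type libraries. Of 10 germline markers 7 fell, with sums of 1689 to 3864 CPM in the mutant libraries and 4593 to 6486 CPM in the wild-type libraries. DESeq2 called 12 oocyte and 7 germline markers lower and edgeR 5 and 7. By limma 5 oocyte and 4 germline markers were called with library size alone, 6 and 3 with upper-quartile scaling, and 1 and 1 with the deposited TPM. Of 9 sperm markers 4 rose by limma, 6 or 7 under the other scalings, with sums of 270 to 393 CPM in the mutant libraries and 160 to 241 CPM in the wild-type libraries. Of 10 neuron markers 3 rose by limma, and 5 to 7 under the other scalings, and their means in mutant libraries 1, 2 and 3 were 0.74, 0.55 and 0.39 above wild type, against 0.39, 0.50 and 0.19 for *unc-5*. Without mutant library 3, limma called 11 oocyte and 8 germline markers lower and 8 molting, 6 neuron and 5 sperm markers higher. Without any 1 other library it called 0 in these 5 lists, except 1 sperm marker without wild-type library 1. None of these lists held a marker at 0 in any library.

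*daf-12* was high in both replicate-1 libraries, which stood at 0.89 in the mutant and 0.67 in wild type relative to the wild-type mean. *blmp-1* was also highest in library 1 of each group, at 0.83 in the mutant and 0.23 in wild type. The 7 body wall muscle markers were high in both replicate-1 libraries too, at 1.08 in mutant library 1 and 1.18 in wild-type library 1. They stood between -0.85 and -0.09 in the other 4 libraries. Of these muscle markers 0 were called by limma, edgeR or DESeq2, and 0 had an unadjusted p under 0.05. The seam list held 6 names, of which *elt-5* is another name of *egl-18* and matched no row of its own, so it stands for 5 genes. Of these 3 were tested and *egl-18* fell by 0.92 (SE 0.30, limma adjusted p = 0.0472), a call made by neither edgeR nor DESeq2 and lost under the other scalings and without any 1 library other than mutant 3, while *nhr-73* and *ceh-16* were too low to test. *nhr-73* had at most 13 reads and *ceh-16* at most 5 in any library, and 1 of the 5 matched seam markers was at 0 in some library. The seam list's mean stood between -0.30 and 0.26 in the mutant and between -0.27 and 0.37 in wild type, so it did not separate the groups.

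**Figure D4:**
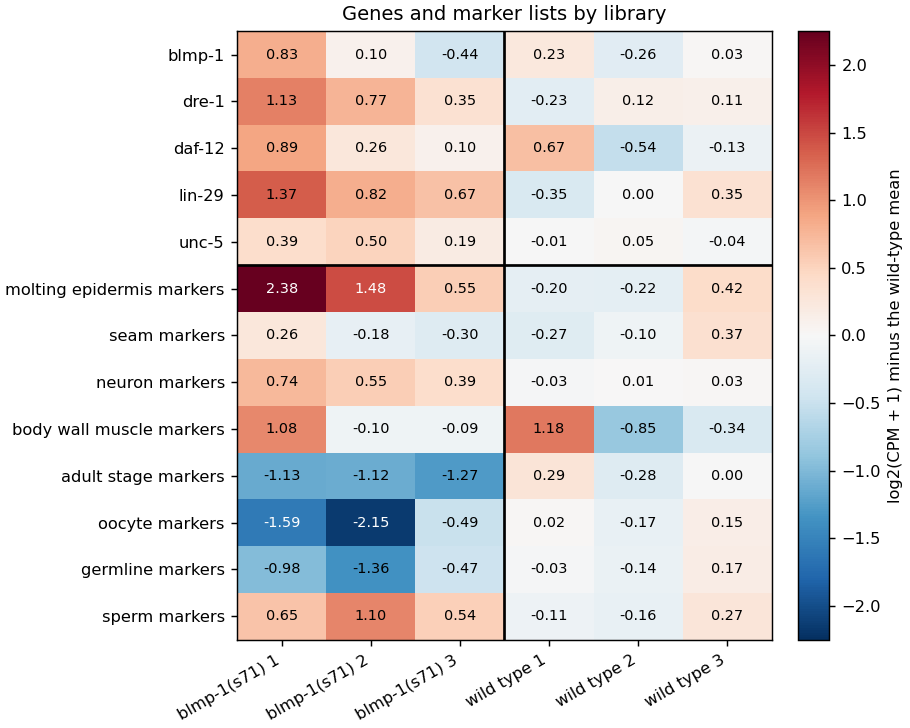
Log2(CPM + 1) of each gene, and the mean over each marker list, minus the wild-type mean, in the 3 *blmp-1(s71)* and 3 wild-type libraries. Numbers and colours give the same value; the molting list is highest in mutant library 1 at 2.38 and the oocyte list lowest in mutant library 2 at -2.15, while *daf-12* and the body wall muscle list are high in both replicate-1 libraries.

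Over the 6 libraries, the genes whose log2 levels were most like those of each gene were sought among 11173 genes whose mean log2 value was 2 or more. These correlations are a description, since the points share the 2 groups and their depths. For *lin-29* they were *R03E9.2* (Pearson r = 0.997), the neprilysin gene *nep-11* (r = 0.995) and *F57G12.1* (r = 0.993), and 171 genes had an r of at least 0.95. For *dre-1* they were *C11H1.9* (r = 0.998), *F46G11.2* (r = 0.995) and *tiam-1*, a Rac exchange factor gene (r = 0.995), with 259 genes at 0.95 or above. *unc-5* was most like *ZC443.3* (r = 0.997), the MADS-box factor gene *mef-2* (r = 0.996) and *F22B7.9* (r = 0.993), with 245 such genes. *daf-12* was most like the copine gene *cpna-1* (r = 0.997), the ABC transporter gene *abt-2* (r = 0.995) and the zinc finger homeobox gene *zfh-2* (r = 0.993), with 118 such genes. Each of these 3 was higher in wild-type library 1 than in mutant libraries 2 and 3. *blmp-1* had the fewest, 13, led by *elf-1* (r = 0.985), *F52E10.4* and *R08E3.1* (both r = 0.982).

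The calls of *lin-29* and *dre-1* held under each scaling and tool tried, and the number of all genes called moved far more. Both genes were called with library size alone, where 17.6% of all genes were called, with upper-quartile scaling (24.3%), with the deposited TPM (15.4%) and with pseudocounts of 0.5 (21.4%) and 2 (22.7%). Neither was called with no filter on low values, where 0.503% of all genes were called, or without both replicate-1 libraries (0.946%). The calls of *mig-10*, *unc-6*, *hlh-2*, *skr-2*, *rbx-1*, *ncr-2*, *daf-9*, *nhr-85*, *grh-1* and *hmg-12* were lost in both of these settings too. Neither was called without wild-type library 1 (2.01%), 2 (1.31%) or 3 (1.71%), or without mutant library 1 (0.294%) or 2 (0.257%). Without mutant library 3 both were called, and so were 35.7% of all genes by limma, 37.2% by edgeR and 42.6% by DESeq2.

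**Figure D5:**
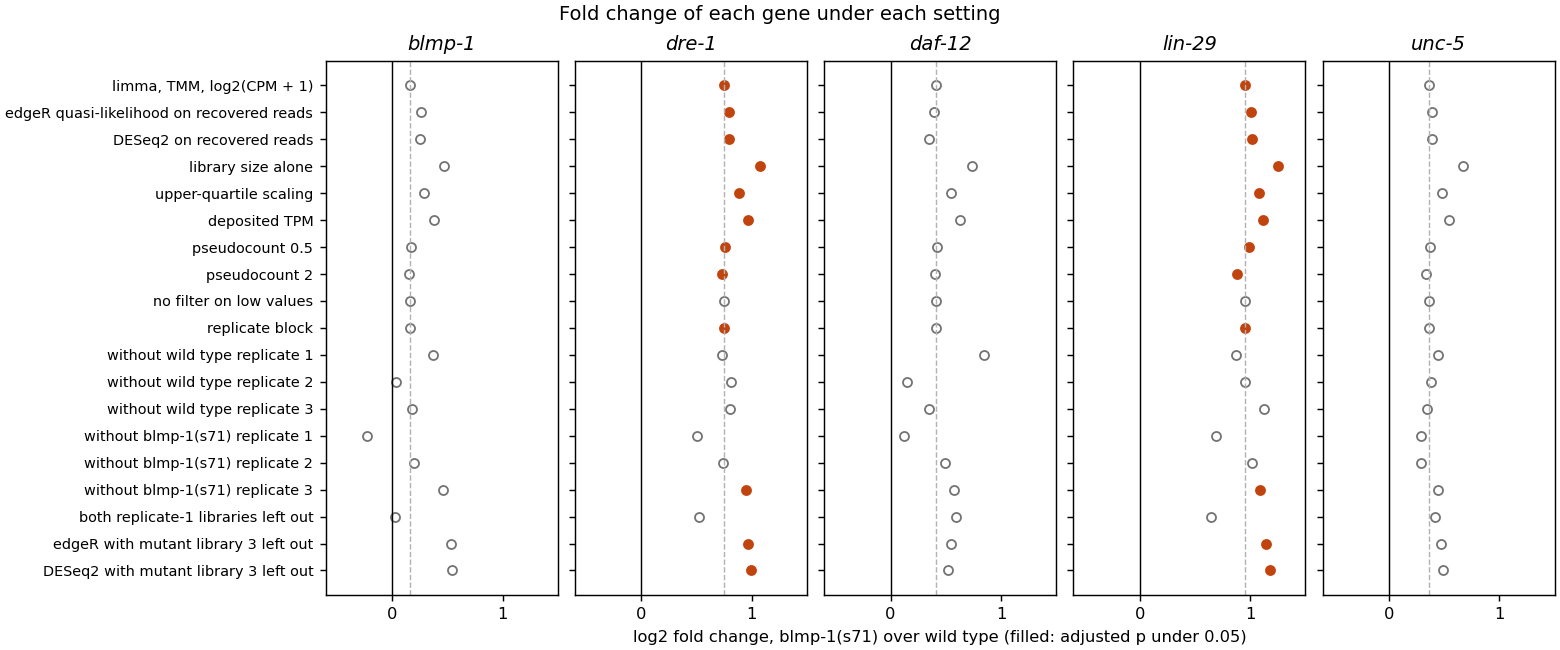
Log2 fold change of each gene, *blmp-1(s71)* over wild type, under limma with TMM scaling (top, dashed line) and each alternative. Filled points have an adjusted p under 0.05; *lin-29* and *dre-1* keep a positive fold change throughout and lose the call when any 1 library other than mutant 3 is left out.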

How the data were processed

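The authors deposited 1 CPM and 1 TPM value per gene and library, per the file headers. Both sum to 1000000 per library and carry no scaling between libraries. The tools listed, per the submitters' processing notes, are DESeq2 1.22.0, featureCounts 1.6.3, HISAT2 2.1.0 and Trimmomatic 0.36. No source used here gives the genome build, the annotation or the use of strand.

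Within 0.01 reads, 100% of nonzero CPM values were whole multiples of 1 read, which gave the reads back. A level of 3 reads corresponds to 0.197 to 0.571 CPM. Intervals from reads cover counting error only.

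CPM were divided by TMM factors computed from the recovered reads of all genes. The factors were 0.813 to 0.987 in wild type and 1.079 to 1.21 in the mutant. They thus differed with the group, and dividing by them lowered the mutant relative to wild type. Levels were tested as log2(CPM + 1) with limma 3.58.1 (trend, robust) in R 4.3.3, with the group as its only term. The code of the fit was tested on simulated reads with as many raised as lowered genes and the same dispersion for every gene. That does not show how the fit performs on these libraries. On the recovered reads the tests were repeated with DESeq2 1.42.0 and edgeR 4.0.16. Ratios were tested with SciPy 1.17.1. Exon overlaps and positions are from the WBcel235 annotation. A series-wide table was left out.

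Genes named were the 5 genes, up to 3 called genes of each related list by adjusted p or else the gene with the highest mean, the 3 most correlated genes, and protein-coding genes overlapping one of the 5. Every other gene was named outside that rule, after its values were seen. The members and lists were chosen with earlier results of these data known. Alternatives were other tools, scalings, pseudocounts, no filter, a replicate block and left-out libraries. edgeR and DESeq2 without mutant library 3 were added after seeing the data.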

Additional observations from a re-analysis of the deposited data

How the results depend on the processing

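The directions of *dre-1*, *lin-29*, *daf-12* and *unc-5* held under every alternative. *lin-29* was 0.95 (limma adjusted p = 0.0666) and *dre-1* 0.75 (limma adjusted p = 0.0841) with no filter on low values, and 0.65 (limma adjusted p = 0.144) and 0.52 (limma adjusted p = 0.191) without both replicate-1 libraries, so 0 of the 5 genes were called in either case. Leaving out 1 library in turn gave 0 to 2 called, with log2 fold changes from 0.50 to 0.95 for *dre-1*, 0.69 to 1.13 for *lin-29*, 0.12 to 0.84 for *daf-12*, 0.29 to 0.44 for *unc-5* and -0.23 to 0.46 for *blmp-1*. The ratios to *blmp-1* then ran from 0.36 to 0.81 (*dre-1*), 0.0984 to 0.482 (*daf-12*), 0.54 to 1.04 (*lin-29*) and -0.0207 to 0.55 (*unc-5*). Over all genes 3061 were called, 34 to 4746 with 1 library left out, 115 with no filter, 124 without both replicate-1 libraries, and 4948 by edgeR and 5663 by DESeq2 without mutant library 3. The cause was not tested; fits without 1 library have fewer samples. Same-numbered libraries 1, 2 and 3 had correlations of deviations from the group means of 0.355, 0.443 and -0.0867. Between unlike numbers the correlations ran from -0.449 to 0.185. Libraries 1 and 2 thus deviated like their namesakes and library 3 did not, and the main fit took no account of this. Deviations within a group sum to 0, so these correlations are tied to each other and are not separate evidence of pairing. With a replicate block 5877 of 13756 genes and the same 2 of the 5 were called, *lin-29* with limma adjusted p = 0.0123 and *dre-1* with limma adjusted p = 0.0146, *lin-41* was then called as well (limma adjusted p = 0.00762), and the 4 ratios gave exact permutation p-values of at least 0.25, the smallest possible. Among the most alike genes, *elf-1*, *F52E10.4* and *R08E3.1* ran from -0.22 to 0.45, -0.10 to 0.52 and -0.12 to 0.33 with 1 library left out. Of the called genes 1216 of 3061 were higher in the mutant, against 2282 of 2422 with library size alone, 2032 of 3344 with upper-quartile scaling and 2020 of 2237 with TPM. Depth limits the weakest values, such as the 28 reads of *lin-29* and 6 of *daf-9* in wild-type library 1.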

Other observations

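The *unc-5* locus holds 100 annotated piRNA genes, and none of the non-coding genes within it had more than 2 reads in any library. Whether these libraries recover RNA as short as a piRNA was not tested, so this does not show that piRNAs were absent. *lin-42*, the Period-related gene of the molt clock and of larval timing, had the highest positive fold change of the heterochronic list, 1.33 (SE 0.78, limma adjusted p = 0.230, DESeq2 adjusted p = 0.0113, edgeR adjusted p = 0.120), with 65.0 ± 57.1 CPM in the mutant and 18.2 ± 3.63 CPM in wild type (SD, n = 3 each). It was chosen after its values were seen.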
